A study of Mus musculus with 2 samples.

Results

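The genes described here encode nuclear subunits of the mitochondrial respiratory chain, and their messenger RNA was measured in the liver of apolipoprotein E-deficient mice. They were chosen by name: every probe set with a single annotated symbol that starts with Nduf, Uqcr, Atp5 or Cox followed by 4, 5, 6, 7 or 8, or that is Sdha, Sdhb, Sdhc, Sdhd or Cycs. The rule found 85 of 12393 genes, read by 159 probe sets, and each gene was represented by its brightest probe set after values under a floor had been raised to it. For Cox7c, where both probe sets lay under the floor, the first by identifier stands in. It also takes in 5 assembly factors of complex I and Cox7a2l, which organises supercomplexes, so 79 of the 85 are subunits or cytochrome c. The expression values come from 2 Affymetrix arrays. The array titled orujo comes from animals whose high-fat feed held added unsaponifiable fraction, the part of olive oil that remains when its fatty acid esters are removed. The array titled olive comes from animals whose high-fat feed was enriched in whole olive oil. Both groups share the missing apolipoprotein E, which gives mice high plasma cholesterol, and the high-fat feeding. The labels used here give no sex, age, background strain or length of feeding, and do not say whether animals were pooled.

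The respiratory chain sits in the inner mitochondrial membrane. Complexes I and II pass electrons from NADH and succinate to ubiquinone, complex III passes them to cytochrome c, and complex IV passes them to oxygen. Complexes I, III and IV pump protons, and complex V, the ATP synthase, uses the resulting gradient to make ATP. Hepatocytes are rich in mitochondria and use this chain to drive glucose, urea and lipid synthesis. Most subunits are encoded in the nucleus, and their promoters are known for sites of nuclear respiratory factors, the transcription factors Nrf1 and Gabpa, which act with the coactivator PGC-1α.

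RefSeq promoters (build GRCm38.p6, 250 bases before to 50 after a start) were found for 71 of the 85 genes, as 76 windows. The letters GCGCANGCG, the core of the Nrf1 site, were searched on both strands and occurred in 21 of these 76 windows (27.6%), against 6.25% of all 32851 promoters and 13.7% of the promoters of genes measured on both arrays. The other motifs were searched on both strands too. The Gabpa core CCGGAAG occurred in 18 windows (23.7%, against 8.86% of all promoters and 17.8% of those of measured genes). The YY1 letters AAGATGGC occurred in 9 (11.8%, against 2.75% and 4.83%) and the ERRα letters TCAAGGTCA in 2 (2.63%, against 0.423% and 0.358%). No matches of different motifs overlapped in the members' windows (0 pairs). The 150 bases before the start are shown for 1 gene of each group with an Nrf1 match in that stretch, the gene with the lowest ratio between the arrays, because this motif belongs to a factor known for respiratory genes. Capitals mark the match. They are Ndufa5 of complex I (chr6:24527691-24527840, minus strand), the assembly factor gene Ndufaf4 (chr4:24897933-24898082, plus strand), Sdha of complex II (chr13:74350241-74350390, minus strand), Cycs, cytochrome c (chr6:50566570-50566719, minus strand), Cox6a1 of complex IV (chr5:115348959-115349108, minus strand) and Atp5k of complex V (chr5:108434400-108434549, minus strand).
Ndufa5: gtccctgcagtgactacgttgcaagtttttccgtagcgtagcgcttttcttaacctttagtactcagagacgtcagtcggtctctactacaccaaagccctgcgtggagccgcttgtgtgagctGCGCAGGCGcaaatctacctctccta
Ndufaf4: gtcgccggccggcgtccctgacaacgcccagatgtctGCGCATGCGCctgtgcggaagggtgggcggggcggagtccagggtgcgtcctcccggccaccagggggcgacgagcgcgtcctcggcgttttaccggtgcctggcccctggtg
Sdha: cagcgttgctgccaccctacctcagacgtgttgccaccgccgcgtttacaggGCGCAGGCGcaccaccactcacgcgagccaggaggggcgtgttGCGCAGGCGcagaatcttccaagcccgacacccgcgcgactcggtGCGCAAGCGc
Cycs: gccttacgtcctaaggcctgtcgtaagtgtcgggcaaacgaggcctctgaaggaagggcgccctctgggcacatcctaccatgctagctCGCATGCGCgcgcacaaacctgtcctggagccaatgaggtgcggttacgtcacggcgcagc
Cox6a1: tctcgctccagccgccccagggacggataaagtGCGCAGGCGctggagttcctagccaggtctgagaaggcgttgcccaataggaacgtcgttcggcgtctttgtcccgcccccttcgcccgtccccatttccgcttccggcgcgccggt
Atp5k: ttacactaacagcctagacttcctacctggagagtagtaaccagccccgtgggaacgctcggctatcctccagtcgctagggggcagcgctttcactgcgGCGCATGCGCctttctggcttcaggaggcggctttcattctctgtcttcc
Sdha held 3 separate matches in this stretch, Ndufaf4 and Atp5k held 2 that overlap, 1 on each strand, and Ndufa5, Cycs and Cox6a1 held 1. A match describes letters only and shows no binding.

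Each array was scaled to the same trimmed mean, values under a floor of 35.6 (the 50th percentile of both arrays' intensities) were raised to it, and measured means above this floor on each array. A log2 ratio below 0 means a lower signal with the unsaponifiable fraction than with olive oil. With 1 array per diet there was no replicate, so no test of the diets or of a difference between complexes was possible, and precision is limited by having so few arrays. The only repeated measurement is a second probe set of the same gene, which shares RNA, labelling and hybridisation: over 2057 genes with several measured probe sets, the noise SD of 1 probe set's log2 ratio was 0.30, over 149 genes with bright probe sets (at or above the lower quartile of the members' signals) it was 0.26, and over the 41 members with several it was 0.17. All 8 hepatocyte markers read (Alb and Ttr among them) were above the floor on both arrays, with summed signals of 46717 and 45552. Markers of the exocrine pancreas differed between the arrays: 8 of the 9 read were measured and all 8 were lower on the unsaponifiable fraction array. Their median log2 ratio was −2.86. The summed signal of all 9 was 863 on that array against 5791 on the olive oil array. Of the control probe sets, the one for the 5′ end of 18S ribosomal RNA was at 2.54 on the log2 scale and the one for its 3′ end at 0.34, while those for the 5′ and 3′ parts of Gapdh were at 0.15 and 0.12, those of β-actin at −0.02 and −0.27, and the 4 for pyruvate carboxylase between 0.52 and 0.76. The part of these differences in the ratios below was not tested. In such bulk RNA, fewer cells of a type and less RNA per cell cannot be told apart.

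Respiratory chain genes gave slightly lower signals on the unsaponifiable fraction array, mostly by small amounts. Of the 85 genes, 77 were measured, 1 (Ndufs5) was above the floor on the olive oil array only, and 7 were under it on both. The median log2 ratio of the 77 was −0.09, a signal 6.12% lower, and 57 of the 77 ratios (74.0%) were below 0. Over the 6640 genes measured the median was −0.02 and 52.5% of ratios were below 0. The members were drawn from bright probe sets, where genes in general leaned the other way: of 633 other genes at or above the lower quartile of the members' signals, a comparison chosen after the data were seen, 45.7% had a ratio below 0, against 42 of 58 members in that range (72.4%). Large differences were rare. Of the measured members, Cox5b alone was at least 1.5-fold lower, where 5.56% of all measured genes were, and the assembly factor gene Ndufaf4 alone was at least 1.5-fold higher, where 5.57% of all genes were. At the 2-fold limit there were 0 members in either direction, against 0.979% of genes lower and 1.36% higher. Across the deposited scale, the main scaling, median centring, quantile normalization and loess, 53 of the 77 were below 0 each time, 12 were above 0 each time and 12 did not keep their sign. The SD of the members' ratios was 0.20, against 0.42 over all measured genes, and 61 of 77 members (79.2%) lay within 1.2-fold, a limit chosen after the values were known, against 56.5% of all genes.

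**Figure D1:**
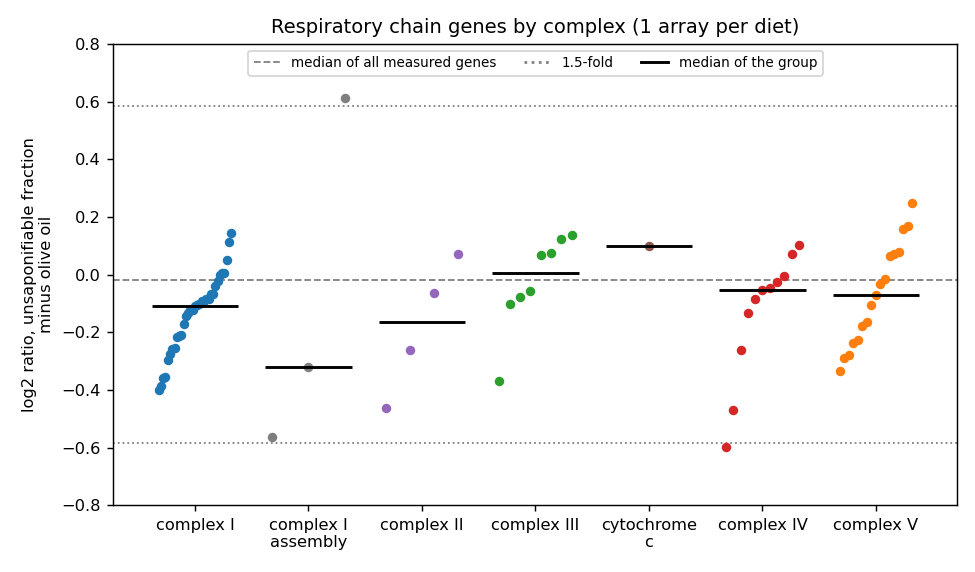
Log2 ratio (unsaponifiable fraction minus olive oil array, y axis) of each measured respiratory chain gene, ordered by value within its group (x axis). Black bars are group medians, the dashed line is the median of all measured genes (−0.02) and dotted lines mark 1.5-fold; in complex I, 28 of 33 points lie below 0, while complex III is split 4 to 4.

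Complex I, the NADH dehydrogenase, was lower in most of its genes. Of its 34 genes 33 were measured, and 28 of the 33 ratios were below 0 (84.8%, against 52.5% of all measured genes). The median log2 ratio was −0.11, with single ratios between −0.40 and 0.14. Over the processing alternatives the median stayed below 0, between −0.15 and −0.09. Among the core subunits, 5 of 6 were lower. Ndufs7, which holds the last iron-sulfur cluster before ubiquinone, read 720.3 with the unsaponifiable fraction and 941 with olive oil (the order of every such pair below), a log2 ratio of −0.39, with −0.21 in its second probe set. Ndufv1, the subunit that binds NADH and the flavin, read 667 against 797, a log2 ratio of −0.26, and its other probe sets gave −0.40 and −0.29. The iron-sulfur subunit Ndufs1 and the core subunit Ndufs3 differed less, at 322 against 346 and 706 against 769. Ndufs8, another iron-sulfur subunit, read 808 against 857, but its 6 probe sets ranged from −0.26 to 0.28. Ndufv2, an iron-sulfur subunit too, was level at 936 against 933.

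The other subunits of complex I, which surround this core, gave the same picture, with 23 of 27 ratios below 0 and a median of −0.11. Ndufb3, of the membrane arm, read 314 against 414, a log2 ratio of −0.40. Ndufb10, also of the membrane arm, read 347 against 444 (−0.36). Ndufa13, known as well as the cell death regulator GRIM-19, read 956 against 1222 (−0.35). These genes have 1 single-symbol probe set each, so no second reading exists for them here. Ndufs5 was above the floor on the olive oil array only, at 32.4 against 54.3. This probe set, close to the floor, was therefore lower by at least 1.53-fold with the unsaponifiable fraction. A brighter probe set that Ndufs5 shares with a pseudogene was 1.25-fold lower. The highest ratios of the complex were small: Ndufb8 read 657 against 595 (0.14), Ndufb1 read 50.1 against 46.3 (0.11), close to the floor, and Ndufa1 read 1622 against 1565 (0.05). Ndufa4, named for complex I but known as a subunit of complex IV, read 1648 against 1777 (−0.11). By its name it was counted with complex I, and its ratio is the median of that group.

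The assembly factors of complex I, which build the enzyme without staying in it, spread more widely than its subunits. Ndufaf4 read 228 against 149 and was 1.53-fold higher. Its log2 ratio of 0.61 was close to the 0.59 of its second probe set. Ndufaf3, whose protein works together with that of Ndufaf4, went the other way at 94.9 against 119 (−0.32). Ndufaf1, an early assembly factor, read 92.7 against 137 and was 1.48-fold lower (−0.56). Ndufaf5 and Ndufaf7 were under the floor on both arrays.

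Complex II, succinate dehydrogenase, belongs to both the respiratory chain and the citric acid cycle, and 3 of its 4 genes were lower. The median log2 ratio was −0.16, and over the processing alternatives it lay between −0.30 and −0.06. Sdhc, a membrane anchor, read 563 against 777, a 1.38-fold lower signal (−0.46), with −0.30 in its second probe set. Sdha, the flavoprotein whose promoter is shown above, read 962 against 1153 (−0.26), with −0.23 in its second probe set. These 2 genes were lower in both of their probe sets. Sdhb, the iron-sulfur subunit, differed little, at 1612 against 1685 (−0.06). Sdhd, the other membrane anchor, read 1240.4 against 1179 (0.07), but its dimmer probe set gave −0.53.

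Complex III, which hands electrons to cytochrome c, had no common direction. Of 8 genes, 4 were below 0 and 4 above, with a median of 0.01 that turned to −0.19 with the second brightest probe sets of 3 genes and to 0.08 without probe sets of shared sequence. Uqcr11, a small subunit, stood lowest at 1037 against 1339, a log2 ratio of −0.37. Uqcr10 and Uqcrq, small subunits as well, followed at 508 against 546 (−0.10) and 1586 against 1674 (−0.08), and Uqcr10 gave 0.51 in a dimmer probe set. The core proteins Uqcrc1 and Uqcrc2 were at −0.06 and 0.07, and Uqcrc2 gave −0.19 in its second probe set. Uqcrfs1, the Rieske iron-sulfur protein that takes electrons from ubiquinol, read 1211 against 1149 (0.08). Uqcrh, the hinge protein, read 505 against 459 (0.14). Uqcrb read 4636 against 4252 (0.12), but −0.32 in its second probe set, and turned to −0.00 under quantile normalization. Cycs, cytochrome c itself, was above 0 in each of its 3 probe sets, at 1310 against 1221 (0.10) in the brightest and between 0.04 and 0.25 in the others.

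Complex IV, cytochrome c oxidase, had 9 of 11 measured ratios below 0 (81.8%, against 52.5% of all measured genes). Its median was −0.05, which lay between −0.14 and −0.01 over the alternatives. Among the 9 are Cox7a2l, Cox4i2 just above the floor, and Cox6b1, which turned to 0.01 under median centring. Cox5b, a subunit at the matrix side, was the measured member at least 1.5-fold lower, at 1843 against 2787 (−0.60). Its 4 other measured probe sets did not share this value and lay between −0.12 and 0.27. Without probe sets of shared sequence its ratio was 0.12, from a probe set close to the floor (49.4 against 45.4). That setting also left out a brighter _a_at probe set at 827 against 815 (0.02). Cox4i1, the common form of the largest nuclear subunit, read 1821 against 2182 (−0.26). Cox5a read 2369 against 2595 (−0.13), with 0.02 and 0.52 in its other probe sets. The ubiquitous isoforms Cox8a (1518 against 1611), Cox7a2 (2982 against 3097) and Cox6b1 (2654 against 2665) were nearly level in their brightest probe sets, as was Cox7a2l (487 against 496). The second probe set of Cox6b1 gave 0.20, and the others of Cox7a2l gave −0.28 and 0.17. Cox7a2l, the organiser of supercomplexes, was counted with complex IV by its name. Cox6a1, whose promoter is shown above, read 3188 against 2966 (0.10, with −0.14 in its second probe set) and Cox6c 2804 against 2666 (0.07), and both turned slightly negative under quantile normalization (−0.01 and −0.03). The dimmer probe set of Cox6c gave 0.64.

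Isoforms known from other tissues were mostly under the floor. Cox6a2, Cox7a1 and Cox8b, the forms of striated muscle and brown fat, and Cox6b2, a testis form, had signals under the floor on both arrays, the highest being 20.5. All 11 striated muscle markers were also under the floor on both arrays. Of the 5 brown fat markers, Ucp1 and Cidea were under it, while Dio2 (37.8 against 41.6), Elovl3 (425 against 400.3) and Ppara (284 against 257), the last a regulator also of liver, were above it. Cox4i2, a form known from lung, lay just above it at 39.7 against 41.1. Cox8c, known from testis, was well above it at 137 against 190 (log2 ratio −0.47), from a single probe set. Cox7c, a subunit of all tissues, was under the floor in both of its probe sets, so these probe sets give no ratio for it.

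Complex V, the ATP synthase, had ratios on both sides of 0. Of 17 genes 11 were below 0 (64.7%, against 52.5% of all measured genes), and the median was −0.07. It turned to 0.03 without probe sets of shared sequence and to 0.08 with the second brightest probe sets of 7 genes. The SD of the 17 ratios was 0.18, close to the noise SD of 0.17 of 1 probe set among the members with several. In complexes I, II, III and IV the SD of the ratios was 0.14, 0.23, 0.17 and 0.22. In the catalytic head, Atp5a1 (the α subunit) read 2967 against 3475 (−0.23, with 0.09 in another probe set) while Atp5b (the β subunit) read 3114 against 2960 (0.07, and −0.03 under quantile normalization). Atp5d, the δ subunit, was lower in both of its probe sets, at 1847 against 2177 (−0.24) and at −0.27. The stalk subunit Atp5o, which makes the enzyme sensitive to oligomycin, had the lowest ratio, at 1032 against 1301 (−0.33), and its dimmer probe set gave −0.55. The small membrane subunits Atp5k (867 against 1059) and Atp5l (855 against 1037) were at −0.29 and −0.28, but the other probe sets of Atp5k gave −0.20 and 0.08. At the other end, Atp5pb, the peripheral stalk subunit b, read 992 against 836 (0.25, with 0.20 in its second probe set). Atp5j, the coupling factor of the stalk, read 1202 against 1069 (0.17), and Atp5md, a small subunit of enzyme dimers, 272 against 243 (0.16). Atp5g1, Atp5g2 and Atp5g3 encode the same mature c subunit of the rotor, and their ratios were −0.10, −0.07 and 0.08, the last turning to −0.07 under quantile normalization.

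**Figure D2:**
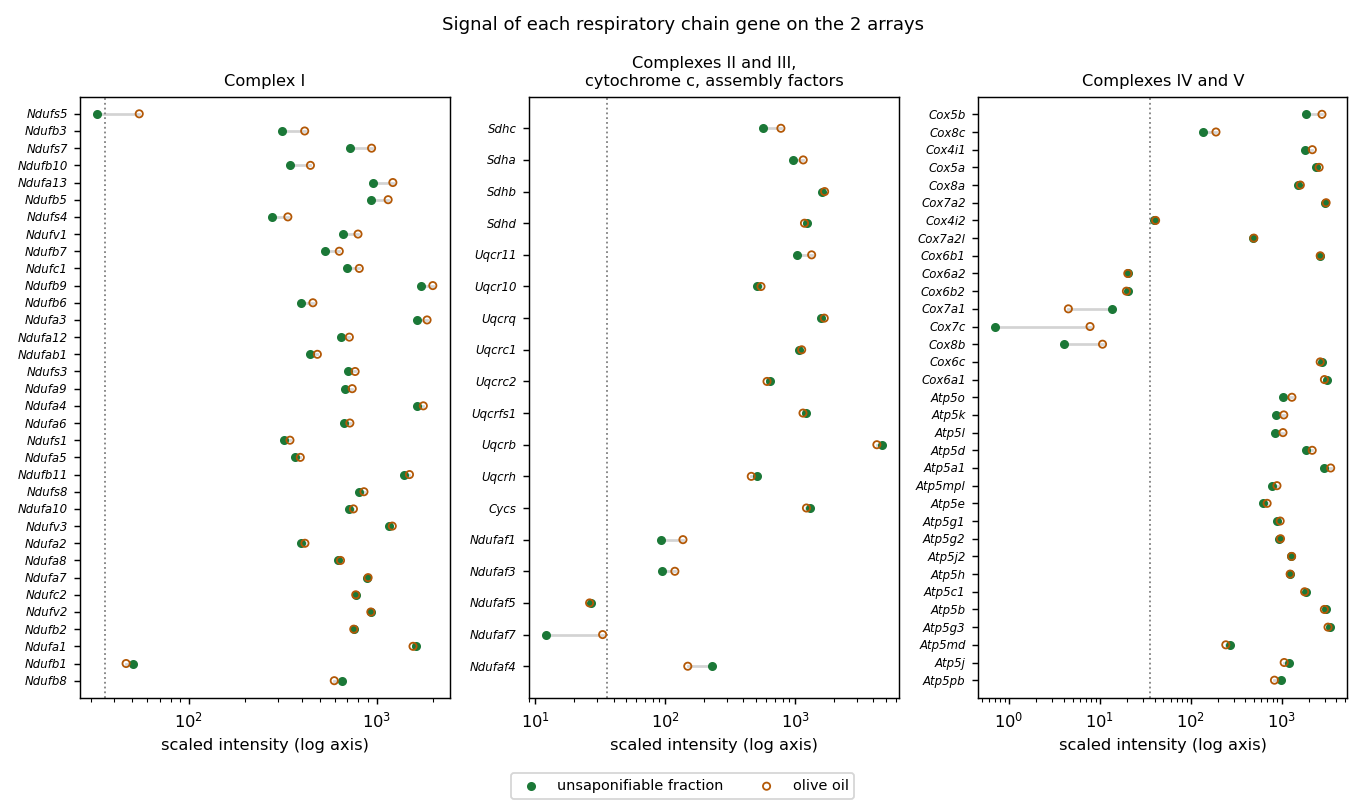
Scaled intensity (x axis, log scale) of the representing probe set of all 85 genes (rows, ordered by ratio within each complex) on the unsaponifiable fraction array (filled green) and the olive oil array (open orange); the dotted line is the floor of 35.6. Most pairs of points nearly coincide, and levels of different genes are not comparable because each probe set has its own response.

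Probe sets of the same gene show the measurement noise of these ratios, but no variation between animals. Among the members, 41 genes had several measured probe sets. In 17 of the 41 every probe set was below 0, in 5 every one was above, and in 19 they had mixed signs. The 17 genes are Ndufa3, Ndufa5, Ndufa7, Ndufab1, Ndufb5, Ndufb7, Ndufb9, Ndufb11, Ndufs7 and Ndufv1 of complex I, Sdha and Sdhc of complex II, Cox7a2 and Cox8a of complex IV, and Atp5d, Atp5j2 and Atp5o of complex V. The 5 genes above 0 throughout are Ndufv2, Cox6c, Cycs, Atp5pb and Ndufaf4, of which Ndufv2 and Cox6c turned below 0 in their brightest probe set under quantile normalization. Over all genes the split was even, with 548 below and 551 above among 2057, and 958 had mixed signs. Among the 149 genes with bright probe sets 52 had mixed signs. In 6 members the probe sets differed by more than 0.5 log2 units: Cox5b (range 0.86), Cox5a (0.66), Uqcr10 (0.61), Sdhd (0.61), Cox6c (0.57) and Ndufs8 (0.54). So wide a range was not particular to the members: 638 of all 2057 genes and 18 of the 149 with bright probe sets had one. Counting all 137 measured probe sets of the members singly, 92 (67.2%) were below 0, against 51.6% of the 9581 measured probe sets with a single symbol.

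**Figure D3:**
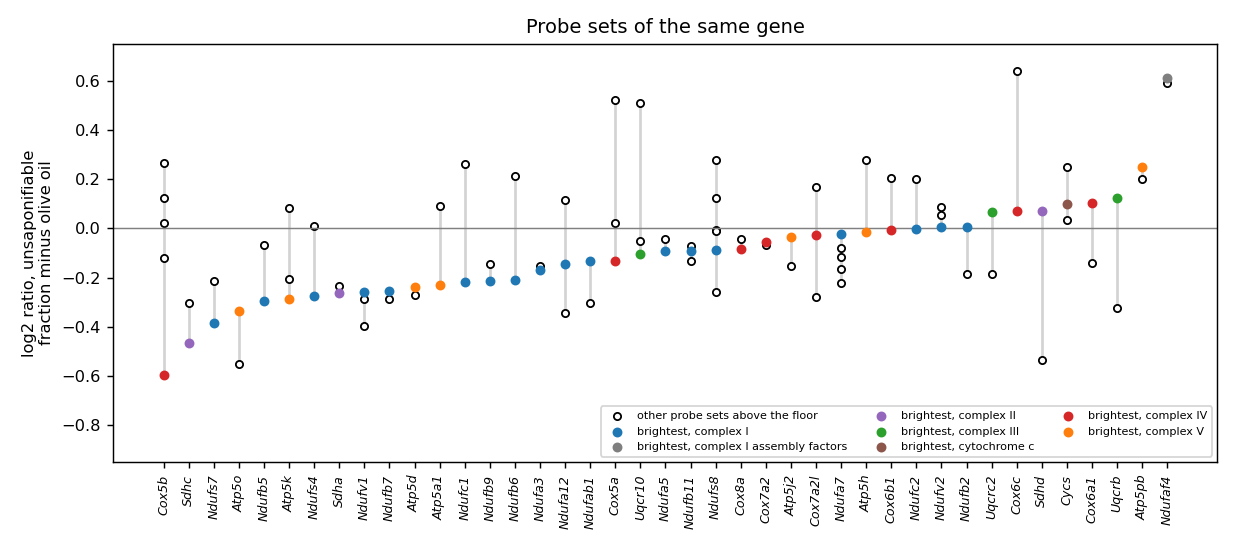
Log2 ratio (y axis, unsaponifiable fraction minus olive oil array) of every measured probe set of the 41 members that have several (x axis, ordered by the brightest probe set). Filled points are the brightest probe sets, coloured by complex, and open points the others; Cox5b spans 0.86 log2 units, while both probe sets of Ndufaf4 lie near 0.6.

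Other mitochondrial genes are given beside the chain to show where it stands. Mitochondrial ribosomal protein genes, whose products translate the subunits encoded in mitochondrial DNA, were mostly lower as well: 48 of 71 ratios were below 0, with a median of −0.17. Of the 71 genes, 5 were at least 1.5-fold lower and 0 at least 1.5-fold higher. Over all measured genes these shares were 5.56% and 5.57%. Mrpl50 had the lowest ratio, at 186 against 373, and Mrpl54 the highest, at 78.1 against 53.0. Assembly factors of all complexes had a median of −0.15 over 30 genes, 3 of them members above, with 18 below 0. Uqcc1, an assembly factor of complex III, was 1.78-fold lower (−0.20 on the log2 scale in another probe set). Other electron donors and carriers were below 0 in 11 of 13 cases, with a median of −0.09. They include, named after their values were seen, Cyc1, the cytochrome c1 of complex III that the naming rule leaves out, at −0.24, the flavoprotein gene Etfa at −0.19 and the ADP carrier gene Slc25a5 at −0.09. Etfb and Etfdh of the same list were nearly level, at 0.005 and −0.01. Chdh, choline dehydrogenase, was lowest at 280 against 360 (−0.36), and Vdac3, a pore of the outer membrane, highest at 452 against 399 (0.18).

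Citric acid cycle and pyruvate dehydrogenase genes, which supply the NADH, had a median of −0.01 over 15 genes (−0.04 to 0.01 over the alternatives run), with 9 below 0. Fh1, fumarate hydratase, was 1.84-fold higher (1514 against 824) and Suclg2, a succinyl-CoA ligase subunit, 1.44-fold lower (275 against 396). Mitochondrial import genes had a median of 0.04 over 19 genes, with 7 below 0. Timm17a, a subunit of the inner membrane translocase, was 2.72-fold higher at 280 against 103, and Timm13, a chaperone of the intermembrane space, was lowest at 399 against 543 (−0.45). Genes that regulate mitochondrial biogenesis had a median of −0.04 over 13 genes, which lay between −0.04 and 0.04 over the alternatives run. Ppargc1a, which encodes PGC-1α, was 2.53-fold higher at 145 against 57.1, with 0.85 in its second probe set. Esrra, the nuclear receptor ERRα that works with it, was 1.49-fold higher at 103 against 69.5. The respiratory factor gene Nrf1 was level at 65.1 against 67.7 (−0.06). Tfam, whose protein packs mitochondrial DNA and acts as a factor in its transcription, read 129 against 151 (−0.23). Gabpa read 75.9 against 112 (−0.57), but its second probe set gave 0.34.

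Lists outside the mitochondrion also differed from each other in direction. Cytosolic ribosomal protein genes, which like many members are short and abundant transcripts, had a median of 0.02 over 39 genes, with 15 below 0, between Rpl22 at −0.64 and Rpl27a at 1.73, and the median turned to −0.06 under quantile normalization. Proteasome genes had a median of −0.18 over 36 genes, with 27 below 0, between Psmd5 at −0.54 and Psmb8 at 0.36. A majority of ratios below 0 was therefore also found outside the respiratory chain.

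**Figure D4:**
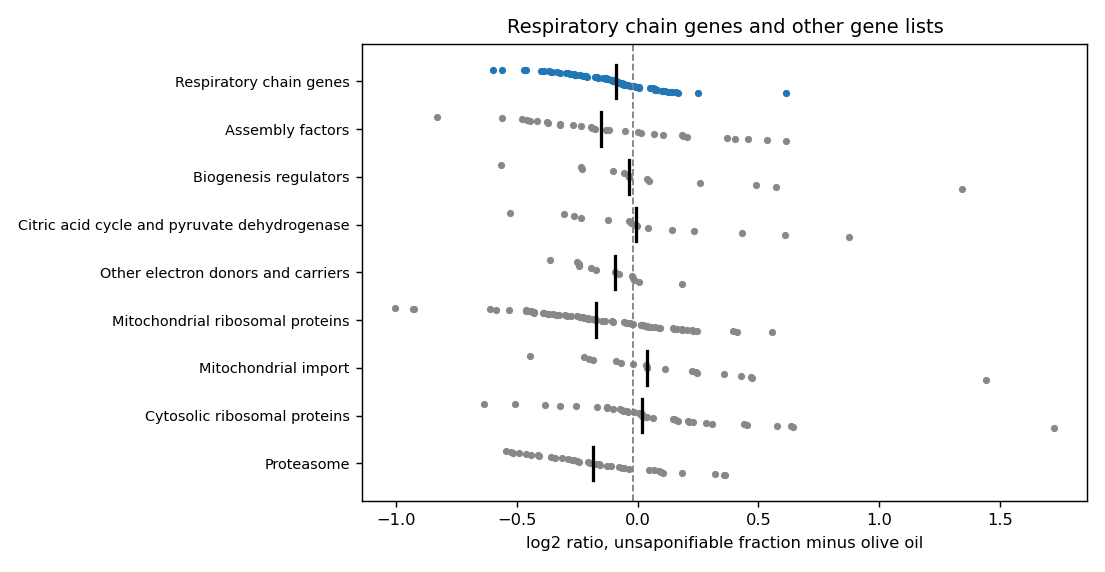
Log2 ratio (x axis, unsaponifiable fraction minus olive oil array) of each measured gene in the respiratory chain set (blue) and in 8 other gene lists (grey, rows), with each median as a black bar. The dashed line is the median of all measured genes (−0.02); the bars for mitochondrial ribosomal proteins (−0.17) and proteasome genes (−0.18) lie further below it than that for the respiratory chain (−0.09).

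Members with and without a promoter motif are given side by side. The 18 measured members with the Nrf1 letters had a median log2 ratio of −0.06, with 12 below 0, and the 46 without them −0.10, with 35 below 0. The 18 with the Gabpa letters had a median of −0.09 and the 46 without them −0.09. For the YY1 letters the medians were −0.12 over 9 genes with them and −0.09 over 55 without. Both genes with the ERRα letters were above 0 (median 0.08), against a median of −0.09 over the 62 without. The genes whose promoters are shown were picked by their ratio, as the lowest with a match in each group. Their directions therefore describe no link to the motif. Atp5k (−0.29), Sdha (−0.26) and Ndufa5 (−0.09) were below 0, while Cycs (0.10), Cox6a1 (0.10) and Ndufaf4 (0.61) were above.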

How the data were processed

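Liver RNA was hybridised to 2 Affymetrix arrays, 1 per diet, with targets made from about 8 µg of total RNA, per the labels. The authors deposited 1 linear intensity per probe set and array; the labels name neither the summarising software nor detection calls. Both arrays had a 2% trimmed mean of about 100 over 22690 probe sets, so the authors' values had been scaled. Here 64 control probe sets were set apart, arrays were brought to a common trimmed mean (factors 1.001 and 0.999), values were floored at the pooled 50th percentile (35.6) and log2 was taken. Of 22626 probe sets 20380 had a single symbol in the platform annotation, and all 85 members' Entrez identifiers matched RefSeq (GRCm38.p6). A gene is represented by its brightest probe set (mean of both log2 values).

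The named genes are every complex II member and Cycs, the 3 highest and 3 lowest ratios of the other complexes, members at least 1.5-fold apart or above the floor on 1 array only, core subunits, isoform families, members whose probe sets differ by over 0.5 log2 units, the extremes of each other list and 5 regulators. The members, lists and alternatives were chosen with earlier results of these data known. Python 3.11.15, numpy 2.4.6, pandas 2.3.3 and statsmodels 0.14.6 were used, and the calculation was tested on simulated data. Alternatives covered scaling, normalization (loess span 0.4), floor, pseudocount, probe set choice and membership. Probe sets of shared sequence here means all whose identifiers carry a letter before _at, such as _s_at, _x_at and also _a_at.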

Additional observations from a re-analysis of the deposited data

How the results depend on the processing

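A median counts as moved where it shifted by more than the noise SD of 1 probe set divided by the square root of its number of genes, and a count where it changed by over 1.5 times. Of the alternatives to medians and counts, 158 values held and 32 moved. The rule for counts ignores how many genes were measured, so a setting with fewer measured members can move a count by that alone. The share of members below 0 was 74.0% in the main setting, 67.3% without probe sets of shared sequence and 63.4% with the second brightest. Over all measured genes it was 52.5%, 53.1% and 50.2%. The median of all members stayed below 0 throughout, between −0.13 and −0.07. Under quantile normalization the medians were −0.13 for all members, −0.15 for complex I, −0.13 for complex IV, −0.14 for complex V, −0.21 for other electron donors and carriers and −0.057 for cytosolic ribosomal proteins. With the mean over probe sets all members were at −0.066, and with the mean as the summary complex IV was at −0.14. Without probe sets of shared sequence 37 of 55 members were below 0, the medians were −0.15 for complex I, −0.064 for complex II, 0.077 for complex III and 0.029 for complex V, and Cox5b reversed to 0.12. With the second brightest probe set, 26 of 41 members and 13 of 18 complex I genes were below 0, and the medians were −0.069 for all members, −0.30 for complex II, −0.19 for complex III and 0.084 for complex V. Without members whose probe sets differ by over 0.5, which was added once the data were known, complex II was at −0.26 and complex III at 0.069. The assembly factor median was −0.053 at a 75th percentile floor. The count at least 1.5-fold lower (1) was 3 at a 25th percentile floor, where 1 member was 2-fold apart, and 0 under median centring, the mean over probe sets, no shared-sequence probe sets, the second brightest probe set and without members whose probe sets differ. The count at least 1.5-fold higher (1) was 2 with the second brightest probe set and 0 with the pseudocount and without members that are no subunit. Signal near the floor limits Ndufb1, Ndufs5, Cox4i2 and the reversed value of Cox5b. No paired analysis was possible because each diet has 1 array.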

Other observations

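Some probe sets carry the symbols of several genes and were kept out of the counts above. Both probe sets shared by Ndufb4 and its copies Ndufb4b and Ndufb4c, accessory subunit genes of complex I, were lower on the unsaponifiable fraction array, at 543 against 800.2 (log2 ratio −0.56) and 434 against 513 (−0.24). The probe set shared by Ndufs5 and a pseudogene read 169 against 212 (−0.33), the same direction as the single-symbol probe set of Ndufs5. At 1.25-fold lower, its difference was smaller than the bound of 1.53-fold from that dimmer probe set. The probe set shared by Ndufab1 and a pseudogene read 215 against 251 (−0.22). The probe set of Ndufa11 and its copy Ndufa11b read 513 against 473 (0.12), and that of Ndufs6 and Ndufs6b 668 against 658 (0.02). In copies this alike the signal cannot be assigned to one gene.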
